A study of Mus musculus with 8 samples.

Results

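The Xlr3, Xlr4 and Xlr5 genes are a family of near-identical copies on mouse chromosome X. The 7 genes Xlr3a, Xlr3b, Xlr3c, Xlr4b, Xlr5a, Xlr5b and Xlr5c were taken by symbol from the deposited gene tables, and they are 7 of the 18821 genes listed there in all. They were measured in J1 mouse embryonic stem (ES) cells, a male line of a 129 strain, in which Zscan4 was lowered or raised. Zscan4 is a family of zinc finger genes that ES cells switch on in bursts together with other genes of the 2-cell embryo. The members had been picked out with their levels in these same libraries in view, so their levels and differences are given as a description, without a test.

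mRNA was sequenced in 8 libraries, 2 in each of 4 groups. In the knockdown arm, wild-type J1 cells were transfected with 1000 ng of pSuper puro plasmid that carried a random control sequence (KD control) or an shRNA against Zscan4 (KD Zscan4). Cells of both groups were selected from 24 h onward with 2 µg/ml puromycin for 7 days. In the overexpression arm, wild-type J1 cells received 1000 ng of pCMV-tag2 plasmid, as a control (OE control) or with the coding region of Zscan4c (OE Zscan4). Both of these groups were selected with 500 µg/ml G418 for 10 days. Monoclonal cells were picked in each arm. The labels do not say whether the 2 libraries of a group came from separate clones or cultures, so p-values measure the spread between these libraries, which may be technical.

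XLR proteins (X-linked, lymphocyte-regulated) are relatives of SYCP3, a structural protein of the synaptonemal complex that holds paired chromosomes together in meiosis. The first Xlr gene was described in lymphoid cells, and relatives of it are transcribed in germ cells and in the brain. Xlr3b, Xlr4b and Xlr4c are known as imprinted genes that are transcribed mainly from the maternal X chromosome in the mouse brain. A male cell holds a maternal X chromosome alone.

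The libraries held 17392177 to 22381633 reads in genes. The values below are reads divided by 1 scaling factor per library, so that a value of 1 corresponds to about 1 read. The sum of the 9 measured Zscan4 genes followed the labels. It was 3752 and 3336 in KD control against 97.4 and 136 in KD Zscan4, and 360 and 389 in OE control against 5878 and 5311 in OE Zscan4. All 6 ES cell markers examined (Pou5f1, Sox2, Nanog, Zfp42, Esrrb and Dppa5a) were measured in both arms, with summed values between 89534 and 128465 in every library. They were called higher in 3 of 6 cases in KD Zscan4 and in 6 of 6 in OE Zscan4, where the sums were 93301 and 89534 in control against 128150 and 128465. Over all genes, 17.2% were called higher in KD Zscan4 and 22.3% in OE Zscan4. Of 10 lymphoid markers, 3 were listed in each arm, with sums of at most 154, and the common leukocyte gene Ptprc was not among them. Trophoblast markers had sums of at most 88.7, with Cdx2 called lower in KD Zscan4. Elf5 had 9.54 and 16.5 in OE control and 3.19 and 2.82 in OE Zscan4. Genes listed in the overexpression arm had values that summed to at least 18.8, so Elf5 is listed only through OE control. With OE Zscan4 values this low only a fall could have been seen, and nothing is read from its call as lower.

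The members lie in 1 block of 206.7 kb, chrX:73086293-73292976 (mm10, GENCODE M21 gene models). From the lower coordinate upward the order is Xlr3a (minus strand), Xlr5a (minus), Xlr5b (plus), Xlr3b (plus), Xlr4b (plus), Xlr3c (minus) and Xlr5c (minus). Xlr4a lies just before Xlr3a and Xlr4c between Xlr4b and Xlr3c. The gene model of Xlr5a runs from 73107635 to 73292976 and so spans the other 5 members that follow it. It shares 101 bases of exon with Xlr5c, which is 5.48% of its own exon length and 6.07% of that of Xlr5c.

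The copies differ little within a group. Aligned transcripts were 98.5% to 99.1% identical among the Xlr3 genes, 98.7% to 99.3% among Xlr4a, Xlr4b and Xlr4c, and 99.3% to 99.4% among the Xlr5 genes. Between groups the identity was 72.7% to 76.9%. Of the 50-base stretches in the transcripts of a gene, the share found in no other annotated Xlr gene was 55.3% for Xlr3a, 43.6% for Xlr3b, 27.9% for Xlr3c and 47.8% for Xlr4b. It was 15.8% for Xlr5a, 9.27% for Xlr5b and 15.6% for Xlr5c. Reads can therefore be shared between copies, and how shared reads were counted is not given in the sources used here. Values of single copies are uncertain for this reason, and sums of a group are given beside them.

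The start regions of the 3 Xlr3 genes are shown because these copies had similar promoters and different levels. Each is the window of 250 bases before to 50 bases after the annotated start (RefSeq, GRCm38.p6, which is mm10), read on the strand of the gene, at chrX:73097046-73097345 (minus), chrX:73191929-73192228 (plus) and chrX:73265341-73265640 (minus) in that order. Capitals mark CCAAT, the recognition motif of the factor NF-Y, which was searched on both strands.

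Xlr3a: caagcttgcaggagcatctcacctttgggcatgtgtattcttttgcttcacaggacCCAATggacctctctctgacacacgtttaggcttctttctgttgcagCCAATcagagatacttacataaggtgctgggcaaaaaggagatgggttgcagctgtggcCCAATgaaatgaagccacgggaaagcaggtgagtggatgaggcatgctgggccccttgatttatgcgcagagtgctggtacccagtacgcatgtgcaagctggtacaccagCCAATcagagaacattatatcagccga
Xlr3b: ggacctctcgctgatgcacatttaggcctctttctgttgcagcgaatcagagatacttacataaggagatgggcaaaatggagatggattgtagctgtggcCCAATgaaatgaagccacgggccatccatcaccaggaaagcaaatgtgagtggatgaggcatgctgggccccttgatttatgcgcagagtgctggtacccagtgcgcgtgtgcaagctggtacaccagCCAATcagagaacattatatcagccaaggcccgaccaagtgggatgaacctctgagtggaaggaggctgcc
Xlr3c: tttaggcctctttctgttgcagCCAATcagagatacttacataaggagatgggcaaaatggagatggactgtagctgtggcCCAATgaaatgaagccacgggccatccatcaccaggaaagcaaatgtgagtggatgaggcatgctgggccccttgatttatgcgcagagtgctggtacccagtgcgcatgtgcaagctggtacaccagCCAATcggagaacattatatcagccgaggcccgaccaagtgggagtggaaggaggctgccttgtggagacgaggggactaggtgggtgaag

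The windows were 93.7% to 98.1% identical over 219 to 269 aligned bases. Xlr3a held 4 copies of CCAAT, Xlr3b 2 and Xlr3c 3. These counts depend in part on where each annotated start lies, since the windows cover shifted parts of the shared sequence. They also depend on base differences. At the site of the second copy in Xlr3a, Xlr3c holds CCAAT as well and Xlr3b has cgaat. The first copy in Xlr3a lies before the bases at which the windows of Xlr3b and Xlr3c begin. CCAATCAGAG is the 10-base run beginning with CCAAT that most members held, and it was searched for after the sequences had been seen. It began 147 bases before the start and again at base 24 after it in Xlr3a. In Xlr3b it began 21 bases before the start and in Xlr3c 228 bases before it. The run after the start in Xlr3a and that of Xlr3b lie in the same surrounding sequence. So do the run before the start in Xlr3a and that of Xlr3c. The runs of Xlr3b and Xlr3c are therefore at different sites. Xlr3b has cgaatcagag at the site of the Xlr3c run, and Xlr3c has ccaatcggag at the site of the Xlr3b run. Distances of the same site in different copies depend on the annotated starts.

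The windows of Xlr4b (chrX:73214083-73214382, plus), Xlr5b (chrX:73148591-73148890, plus) and Xlr5c (chrX:73290466-73290765, minus) are shown for comparison with the Xlr3 windows, with the same capitals.

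Xlr4b: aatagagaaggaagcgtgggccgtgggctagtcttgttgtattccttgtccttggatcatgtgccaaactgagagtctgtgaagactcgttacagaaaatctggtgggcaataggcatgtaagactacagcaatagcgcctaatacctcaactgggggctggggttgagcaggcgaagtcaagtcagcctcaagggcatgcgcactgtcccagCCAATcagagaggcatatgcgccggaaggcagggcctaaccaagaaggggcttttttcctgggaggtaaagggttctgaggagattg
Xlr5b: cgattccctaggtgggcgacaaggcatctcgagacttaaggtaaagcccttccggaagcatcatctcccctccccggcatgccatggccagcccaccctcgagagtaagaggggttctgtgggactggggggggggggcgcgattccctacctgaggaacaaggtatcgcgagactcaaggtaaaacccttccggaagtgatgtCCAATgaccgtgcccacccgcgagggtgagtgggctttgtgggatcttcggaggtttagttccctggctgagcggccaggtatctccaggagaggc
Xlr5c: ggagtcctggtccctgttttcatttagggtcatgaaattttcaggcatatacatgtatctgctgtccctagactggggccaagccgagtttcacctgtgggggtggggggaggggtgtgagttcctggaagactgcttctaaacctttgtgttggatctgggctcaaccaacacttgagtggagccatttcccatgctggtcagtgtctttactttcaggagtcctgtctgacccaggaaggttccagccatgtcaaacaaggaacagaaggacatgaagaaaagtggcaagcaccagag

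The windows of Xlr4a, Xlr4b and Xlr4c were 98.1% to 98.9% identical to one another, and all 3 held CCAATCAGAG once. The window of Xlr5a was 100% identical to that of Xlr5b over 255 aligned bases, while that of Xlr5c was 69.5% and 72.6% identical to them and held no CCAAT. The RefSeq starts used for Xlr5a and Xlr5c lie inside the GENCODE models. CCAAT was present in 6 of the 7 members' windows and in 37.4% of all 32851 windows of the same length, and CCAATCAGAG in 4 of 7 and in 0.697% of all windows. The longer run was picked because most members held it, and its holders include the 3 near-identical Xlr3 windows. Nothing is therefore read from its count. TGCACAC, a motif reported for Zscan4 protein, was found in the window of Xlr3b alone among the members, on the opposite strand, and in 4.40% of all windows. The E-box CACGTG and the E2F motif TCCCGC, both found at germline genes that are silenced in ES cells, were in 0 of the 7 windows and in 7.15% and 19.98% of all windows. The number of CG dinucleotides per window was 5 for Xlr3a, 7 for Xlr3b and Xlr3c, 8 for Xlr4b, 16 for Xlr5a and Xlr5b and 1 for Xlr5c, where all windows had a median of 7 and quartiles of 3 and 20.

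In the knockdown arm, which asks what loss of Zscan4 transcripts does to other transcripts, 3 members were in the gene table, Xlr3a, Xlr3b and Xlr3c. Xlr3a and Xlr3b were higher in KD Zscan4 than in KD control, and Xlr3c was at a similar low level in both. The table held genes whose values summed to at least 18.3 over its 4 libraries, and the other 4 members were not analysed here in this arm.

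Xlr3a had values of 1.79 and 2.25 in KD control and of 126 and 130 in KD Zscan4. Both knockdown libraries lay far above both controls. The control values rest on 4 reads in all, against 258 reads in KD Zscan4, a ratio of 64.2 with a 95% interval of 24.8 to 237. This interval and the others given for reads cover counting error only, and the reads carry no molecular identifiers. On the scale of log2(value + 1) the difference was 5.42 (SE 0.33).

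Xlr3b had 1.79 and 1.12 in KD control and 12.2 and 22.3 in KD Zscan4. The groups did not overlap, and the 2 knockdown libraries differed from each other by more than the controls did. The reads were 3 against 35, a ratio of 11.6 (3.66 to 59.0), and the log2 difference was 2.85 (SE 0.57).

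Xlr3c had 4.48 and 8.98 in KD control and 4.06 and 5.82 in KD Zscan4. The groups overlapped. The reads were 13 against 10, a ratio of 0.766 (0.301 to 1.89), so a difference within that interval was not detectable at this depth. The log2 difference was -0.33 (SE 0.57).

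The sum of the 3 Xlr3 genes, which depends less on how reads were split among them, was 8.06 and 12.4 in KD control and 142 and 158 in KD Zscan4. It was 14.7-fold higher in KD Zscan4, with means of 10.2 ± 3.04 and 150 ± 11.4 (SD, n = 2). Without Xlr3a, the log2 difference of the sum was 1.32 in place of 3.78. The make-up of the sum differed as well. Xlr3c made up 55.6% and 72.7% of its reads in KD control and 2.86% and 3.68% in KD Zscan4, and Xlr3a 22.2% and 18.2% against 88.6% and 82.2%.

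By limma with Benjamini-Hochberg adjustment over all 17938 genes at a false discovery rate of 0.05, 2 of the 3 members were higher, where 17.2% of all genes were called higher, 18.5% lower and 35.7% in either direction. The groups did not overlap in the higher direction for the same number, where 34.0% of all genes had this. The median log2 difference of the 3 was 2.85, against 0.0078 for all genes. The members had been chosen on this contrast, so nothing is read from these counts. Among markers of other cell types, 6 of 6 of primitive endoderm were lower in KD Zscan4, with sums of 2675 and 2466 in KD control and 248.6 and 210 in KD Zscan4. Of 3 lymphoid markers 2 were lower (sums of 106 and 154 against 64.9 and 64.1), and of 6 germ cell markers Mael alone was called, as higher (sums of 991 and 886 against 971 and 1096). Fibroblast markers had sums of 362 to 389 in all 4 libraries, with Thy1 higher and Twist1 lower. The part of these cell types in the Xlr3 values was not tested. In bulk RNA, fewer cells that transcribe a gene and less RNA per cell cannot be told apart.

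**Figure D1:**
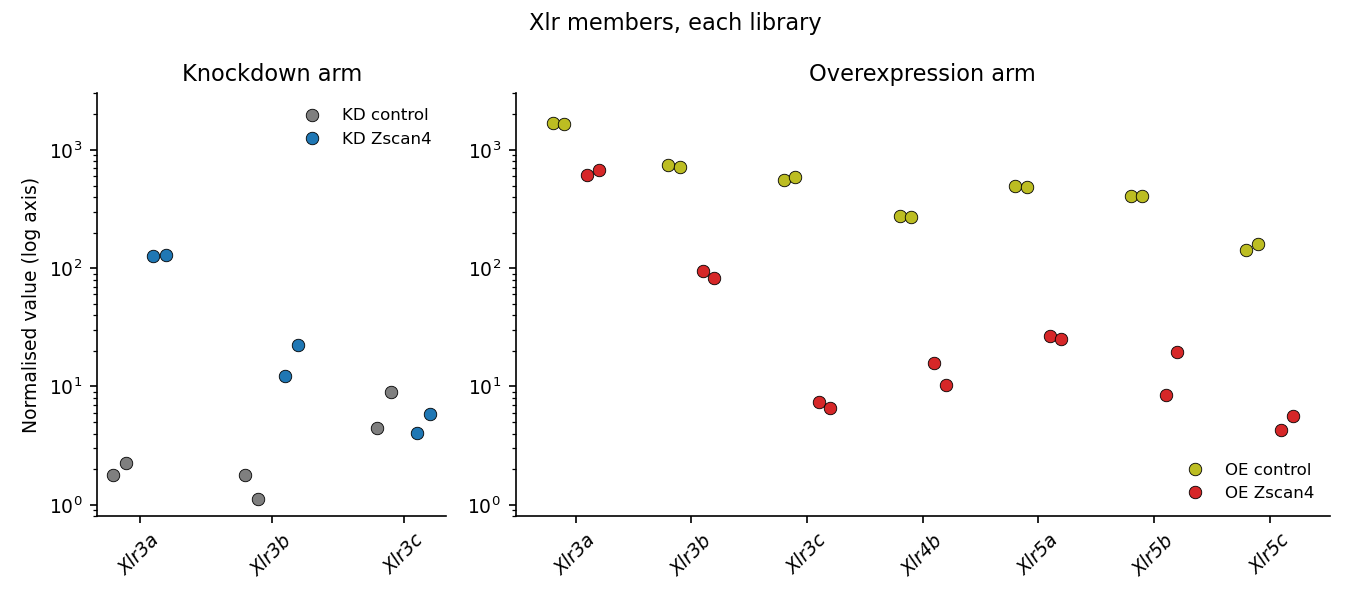
Normalised value of each family member in each library, on log axes, with 1 point per library. In the knockdown arm the KD Zscan4 points of Xlr3a (126 and 130) and Xlr3b lie above the KD control points and those of Xlr3c overlap them; in the overexpression arm the OE Zscan4 points of all 7 members lie below those of OE control.

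In the overexpression arm, which asks what added Zscan4c does, all 7 members were measured and all 7 were lower in OE Zscan4 than in OE control. The levels left in OE Zscan4 ran from 1.23% of control for Xlr3c to 38.6% for Xlr3a.

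Of the Xlr3 group, Xlr3a had the highest value in every library of this arm. It had 1674 and 1661 in OE control and 612 and 675 in OE Zscan4, without overlap. The log2 difference was -1.37 (SE 0.08), and the ratio of reads was 0.387 (0.363 to 0.413). Xlr3b had 749 and 721 in OE control and 94.6 and 82.7 in OE Zscan4, which was 12.1% of control. Its log2 difference was -3.04 (SE 0.12). Xlr3c had 557 and 586 in OE control and 7.44 and 6.58 in OE Zscan4. These 2 last values rest on 7 reads each, and the log2 difference of -6.16 (SE 0.20) was the largest of the family. The intervals of the 3 ratios of reads, 0.363 to 0.413 for Xlr3a, 0.102 to 0.140 for Xlr3b and 0.0067 to 0.0206 for Xlr3c, did not touch one another.

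Xlr4b, which lies next to Xlr3b, had 275 and 273 in OE control and 15.9 and 10.3 in OE Zscan4. This was 4.80% of control, with a log2 difference of -4.31 (SE 0.23).

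The Xlr5 genes were close to one another in the share that was left. Xlr5a had 493 and 488 in OE control against 26.6 and 25.4 in OE Zscan4, which was 5.29% (log2 difference -4.19, SE 0.16). Xlr5b had 405 and 406 against 8.51 and 19.7, which was 3.48% (-4.86, SE 0.27). Xlr5c had 143 and 161 against 4.25 and 5.64, which was 3.26% (-4.69, SE 0.30). None of the 3 overlapped between groups. The intervals of their ratios of reads, 0.0392 to 0.0699 for Xlr5a, 0.0237 to 0.0516 for Xlr5b and 0.0156 to 0.0614 for Xlr5c, overlapped one another.

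The sum of all 7 members was 4296 in each OE control library and 770 and 826 in OE Zscan4, which was 18.6% of control (log2 difference -2.43). The sum of the Xlr3 genes was 2980 and 2969 against 714 and 765, or 24.9%, and that of the Xlr5 genes 1041 and 1055 against 39.3 and 50.7, or 4.30%. What was left in OE Zscan4 was mostly Xlr3a. Its share of the reads of the 7 members was 39.0% and 38.7% in OE control and 79.6% and 81.8% in OE Zscan4, while that of Xlr3c was 13.0% and 13.6% against 0.97% and 0.80%. Without Xlr3a the log2 difference of the sum was -4.09.

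By the same limma rule over 18292 genes, 7 of 7 members were lower, where 22.1% of all genes were called lower, 22.3% higher and 44.3% in either direction. Values without overlap in the lower direction were found for 7 of 7 members and for 35.5% of all genes. At most 10% of the control mean was left for 5 of 7 members and for 0.344% of all genes. The median log2 difference of the members was -4.31, against -0.0022 over all genes. The choice of the members used these values too, since 4 of them are listed in this arm alone, and nothing is read from the counts. Markers of primitive endoderm were called lower in 5 of 6 cases here (sums of 492 and 502 against 284 and 268) and those of fibroblasts in 3 of 5 (626 and 575 against 322 and 309). Of 6 germ cell markers, Sycp3 and the piRNA pathway gene Mael were called lower (sums of 1660 and 1901 against 1424 and 1321). Their part in the family's values was not tested.

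**Figure D2:**
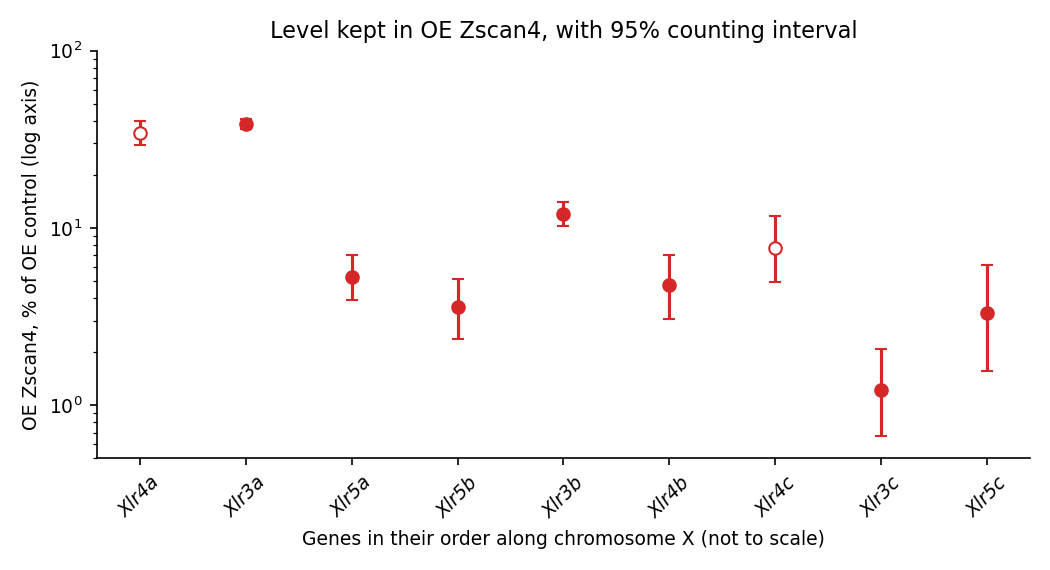
Level in OE Zscan4 as a percentage of OE control, from the reads of both libraries of each group, for the family genes in their order along chromosome X (log axis). Bars are 95% counting intervals, filled points are members and open points Xlr4a and Xlr4c. Xlr3a, at the start of the block, and Xlr4a, just before it, have ratios of reads of 0.387 and 0.343. They lie side by side and stand above the rest.

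Per kilobase of exon, the normalised level in OE control was 412 ± 2.27 for Xlr3a, 361 ± 13.0 for Xlr3c, 266 ± 1.82 for Xlr5a, 233 ± 0.23 for Xlr5b, 194 ± 5.15 for Xlr3b, 107 ± 0.46 for Xlr4b and 91.2 ± 7.50 for Xlr5c (SD, n = 2). No neighbours in this order overlapped. With the length of the longest coding transcript in place of all exons, Xlr3b moved from the fifth to the second place, at 470 ± 12.4 per kilobase against 361 ± 13.0 for Xlr3c, so the order of these members depends on the length that is used. In OE Zscan4, Xlr3a came first at 159 ± 11.0 per kilobase of exon and Xlr3b second at 23.5 ± 2.24. Xlr5b at 8.09 ± 4.55, Xlr4b at 5.13 ± 1.55 and Xlr3c at 4.43 ± 0.39 overlapped their neighbours in the order, and Xlr5c was the lowest at 2.97 ± 0.59.

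The genes of the wider family that are not members were compared by the same limma fit, adjusted over all genes. Xlr4a had 1 read in each KD control library and 28 and 14 reads in KD Zscan4. This was a ratio of 20.9 (5.44 to 178) and a log2 difference of 3.37 (SE 0.58). Genes listed in the knockdown had values that summed to at least 18.3, so Xlr4a is listed there only through KD Zscan4. With control values this low only a rise could have been seen, and no p is given. Of its 50-base stretches, 22.3% were found in no other annotated Xlr gene. In the overexpression arm Xlr4a fell from 332 and 328 to 112 and 115, a log2 difference of -1.54 (SE 0.13, limma adjusted p = 4.6e-08). Xlr4c, measured in the overexpression arm, fell from 154 and 169 to 7.44 and 16.9 (log2 difference -3.72, SE 0.31, limma adjusted p = 4.8e-08). With Xlr4b, the sum of the 3 Xlr4 genes was 760 and 769 in OE control and 135 and 142 in OE Zscan4, or 18.1%. Xlr4a made up 43.7% and 42.6% of it in OE control and 82.7% and 80.8% in OE Zscan4.

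Pseudogenes of the family lie apart from the block, between 74652679 and 74952044 on chromosome X. Xlr5d-ps had 47 reads in OE control and 1 in OE Zscan4, a ratio of 0.0214 (0.00053 to 0.125). Xlr5e-ps, which was named after its values were seen, had 35 reads against 0 and was at least 11.6-fold lower when 3 reads over the group are taken as the floor. Genes listed in the overexpression arm had values that summed to at least 18.8, so both pseudogenes are listed only through OE control. With OE Zscan4 values this low only a fall could have been seen, and no p is given. Xlr3d-ps had 9.54 and 20.6 in OE control and 6.38 and 4.70 in OE Zscan4 (log2 difference -1.22, SE 0.52, limma adjusted p = 0.064). It passed with edgeR on recovered reads (edgeR adjusted p = 0.049) and without OE control library 1 (-1.74, limma adjusted p = 0.021), and without OE control library 2 the difference was -0.70 (limma adjusted p = 0.46). Sycp3 had a log2 difference of -0.28 (limma adjusted p = 0.38) in the knockdown and fell by 0.63 on the log2 scale in the overexpression (SE 0.17, limma adjusted p = 0.0049). Of 26 listed relatives, 2 were measured in the knockdown and 1 was called higher, where 17.2% of all genes were. In the overexpression 5 were measured and 4 were called lower, where 22.1% of all genes were. The counts include Xlr4a, Xlr4c and Xlr5d-ps, which are near-identical copies or have few reads, so nothing is read from them.

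SYCP3 works with other axis and cohesin proteins in meiosis, and 20 meiotic genes were listed for comparison. The list holds genes of the synaptonemal complex, the chromosome axis and meiotic cohesin, and also genes of meiotic entry and recombination (Stra8, Tex11, Meiob and Dmc1 among those measured). In the knockdown 15 were measured, 8 rose and 0 fell, where 17.2% and 18.5% of all genes did, and the median log2 difference was 0.50 against 0.0078 for all genes. The largest rises were those of Stra8, a gene of meiotic entry (2.14, SE 0.06), the meiotic cohesin subunit Smc1b (1.97, SE 0.29), the central element gene Tex12 (1.05, SE 0.37) and Tex11, an X-linked gene of meiotic recombination (1.02, SE 0.12). In the overexpression 16 were measured, 2 rose and 8 fell, where 22.3% and 22.1% of all genes did, and the median was -0.46 against -0.0022. Meiob, which codes for a protein that binds single-stranded DNA in meiosis, had a log2 difference of -1.60 (SE 0.26), Smc1b of -1.17 (SE 0.21), and the cohesin genes Rec8 and Stag3 of -0.84 (SE 0.09) and -0.83 (SE 0.08). Stra8 and Tex11 rose there as well, by 0.48 (SE 0.09) and 0.42 (SE 0.12). All of these changes passed at a limma adjusted p between 6.7e-10 and 0.043.

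A list of 65 X-linked genes, chosen for families of germ cells and placenta, was compared as well. It also holds Nr0b1, a gene of the ES cell network, and Sms, the spermine synthase gene, which is widely transcribed. In the knockdown 22 were measured, 9 rose (Sms among them) and 2 fell (Nr0b1 and the zinc finger gene Zxdb), where 17.2% and 18.5% of all genes did. The median log2 difference was 0.36, against 0.0078 for all genes. The homeobox genes Rhox10 (3.74, SE 0.24) and Rhox13 (3.44, SE 0.35) rose most, followed by the placental homeobox gene Esx1 (2.12, SE 0.16) and Tex13b (1.74, SE 0.34). In the overexpression 25 were measured, 3 rose (Nr0b1, Sms and Tex11) and 9 fell, where 22.3% and 22.1% of all genes did, and the median was -0.56 against -0.0022. Nxf3, a gene of the nuclear RNA export factor family, had a log2 difference of -2.998 (SE 0.26), the ubiquitin protease gene Usp26 one of -1.84 (SE 0.26), and Rhox2a had 23 reads against 1, a ratio of 0.0438 (0.0011 to 0.270). Nr0b1 rose by 1.21 (SE 0.07). Rhox2a is listed only through its OE control values, so no p is given for it. Among the other genes named as changed, limma adjusted p was 0.049 for Zxdb in the knockdown and 0.010 for Tex11 in the overexpression. For the rest it lay between 1.1e-09 and 0.0017.

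The genes around the block were examined in the order of the annotation. Inside the block in the overexpression arm, Gm14685 had 75 reads against 5, a ratio of 0.0672 (0.0212 to 0.164), and DXBay18 81 against 6, a ratio of 0.0746 (0.0266 to 0.170). Both are listed only through their OE control values, so no p is given. The gene models of both overlap that of Xlr5a, and that of DXBay18 also overlaps that of Xlr5b. Without a stated strand of counting, their reads cannot be told apart from those of these members where exons coincide. F8a, a gene within the block that codes for a huntingtin-associated protein, fell in both arms, by 0.56 on the log2 scale in the knockdown (SE 0.15, limma adjusted p = 0.011) and by 0.73 in the overexpression (SE 0.15, limma adjusted p = 5.5e-04).

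On the side of Xlr3a, Pnma5 and Pnma3 lie next to Xlr4a. They code for paraneoplastic Ma antigen proteins, which are related to retroviral Gag. Pnma5 fell in the overexpression from 1015 ± 33.6 to 83.9 ± 8.89 (log2 difference -3.58, SE 0.11, limma adjusted p = 6.3e-13). In the knockdown it had 15.2 ± 8.85 and 25.5 ± 16.0 (0.68, SE 0.49, limma adjusted p = 0.31), and it passed there when KD Zscan4 library 1 was left out (1.34, limma adjusted p = 0.030). Pnma3 is listed in the knockdown only through its KD Zscan4 values. It had 4.04 ± 0.64 in KD control and 14.3 ± 5.87 in KD Zscan4 (1.55, SE 0.50). With control values this low only a rise could have been seen, and no p is given. The difference was 1.15 without KD Zscan4 library 2 and 1.95 without KD Zscan4 library 1. In the overexpression Pnma3 fell from 48.0 ± 0.88 to 19.6 ± 3.83 (-1.26, SE 0.29, limma adjusted p = 0.0020). Gm6858, a pseudogene between them that was measured in this arm, had 9.54 and 10.3 in OE control and 4.25 and 1.88 in OE Zscan4 (-1.49, SE 0.60). It is listed only through its OE control values. With OE Zscan4 values this low only a fall could have been seen, and no p is given.

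On the other side of the block the nearest genes did not pass in either arm or passed in 1 of them. Zfp275 had log2 differences of -0.25 and -0.12 (limma adjusted p = 0.087 and 0.35) and Haus7 of 0.13 and -0.01 (0.20 and 0.93), in the knockdown and the overexpression. Gm18336 fell in the overexpression from 252 ± 5.32 to 94.9 ± 4.06 (-1.40, SE 0.14, limma adjusted p = 4.5e-07) and had -0.13 in the knockdown (limma adjusted p = 0.71). Over the genes inside the block and the 10 measured genes on each side, without the Xlr genes, 5 of 20 rose and 4 fell in the knockdown (median 0.0069) and 2 of 22 rose and 10 fell in the overexpression (median -0.58). These counts include genes listed only through 1 group, Pnma3 in the knockdown and Gm14685, DXBay18 and Plxnb3 in the overexpression. Over the whole of chromosome X, 104 of 589 rose and 93 fell in the knockdown (median 0.03), and 157 of 615 rose and 106 fell in the overexpression (median 0.06).

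**Figure D3:**
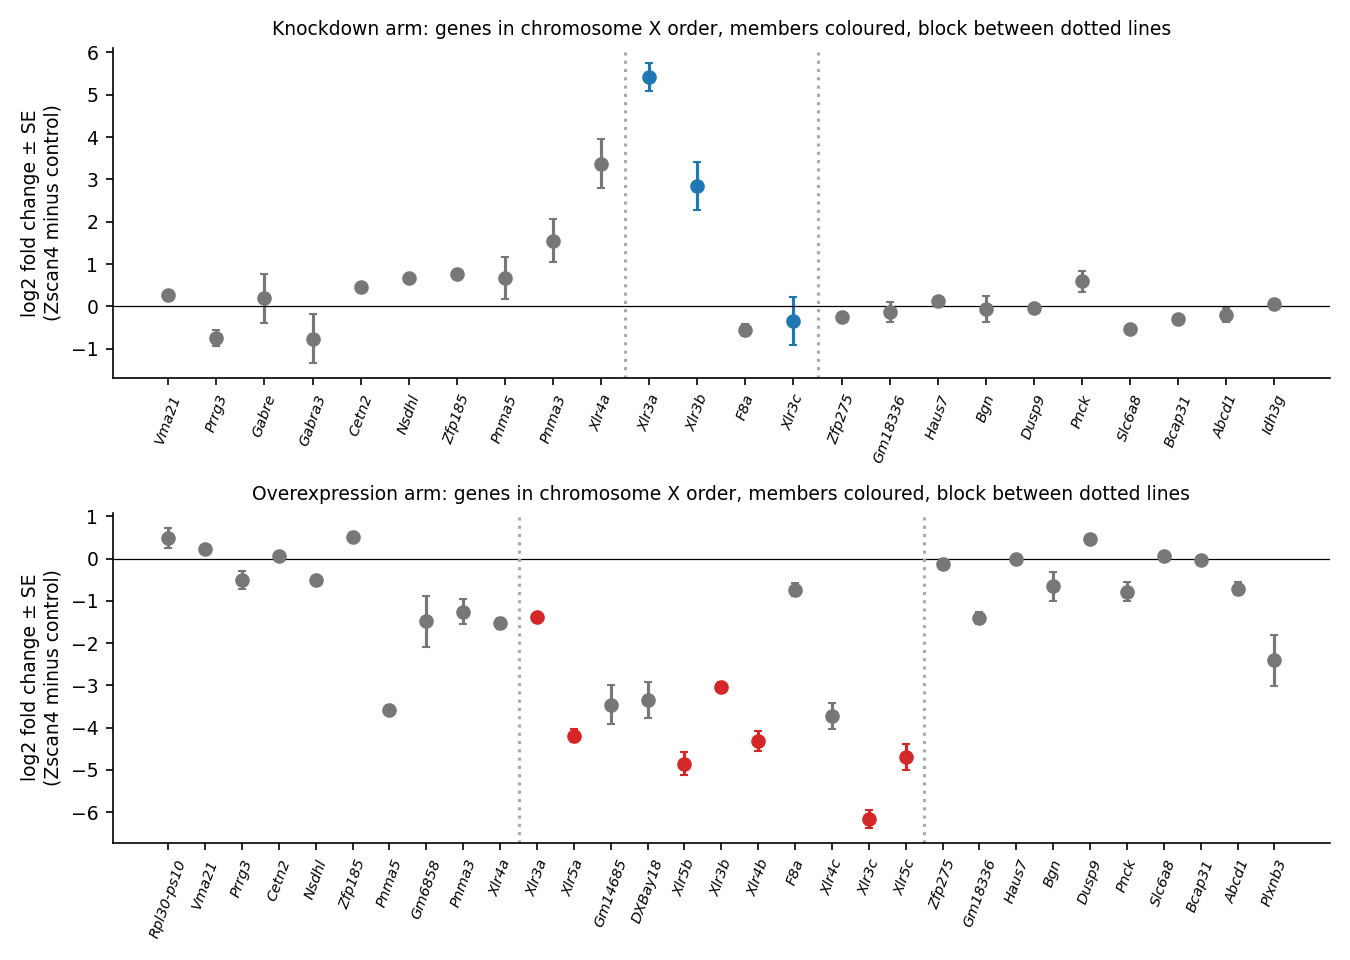
Log2 difference with its standard error for the members (coloured) and the other measured genes around them (grey), in their order along chromosome X and not to scale; dotted lines mark the ends of the block. In the knockdown Xlr4a and Xlr3a, which are adjacent, have the largest differences next to Xlr3b, and in the overexpression the lowest value is that of Xlr3c (-6.16), with Pnma5 at -3.58 outside the block.

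To set the 4 groups side by side, the recovered reads of the 17409 genes in both tables were scaled jointly over all 8 libraries. On this scale the Xlr3 sum was 8.12 and 12.4 in KD control, 141 and 157 in KD Zscan4, 2963 and 2948 in OE control, and 708 and 761 in OE Zscan4. No group overlapped another. The Zscan4 sum in the same order was 3780 and 3359, then 96.6 and 135, then 358 and 387, then 5828 and 5285. The 2 control groups thus differed more in the Xlr3 sum than either did from its own Zscan4 group, by 287-fold. The control groups also differed in plasmid, drug and length of selection, and these cannot be told apart from the clones that were picked.

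Per gene, OE control exceeded KD control by 9.10 for Xlr3a, 8.22 for Xlr3b, 7.35 for Xlr4a and 6.26 for Xlr3c on the log2 scale. These were ranks 1, 2, 3 and 6 among 14736 genes with a joint mean of at least 20, of which 63 (0.428%) were at least 10-fold higher in OE control. These differences between controls were not tested. Xlr3a had 127 ± 3.20 in KD Zscan4 and 640 ± 46.0 in OE Zscan4, and Xlr3b 17.1 ± 7.15 and 88.0 ± 8.15, so these groups were 5.04-fold and 5.14-fold apart. Xlr3c had 4.91 ± 1.25 and 6.96 ± 0.59 there and 6.78 ± 3.21 in KD control, 3 groups near the same low level, with 568 ± 20.01 in OE control alone. Neighbours on both sides of the block were also highest in OE control. Pnma5 had 985 and 1031 there, against 21.7 and 9.05 in KD control, 14.1 and 36.7 in KD Zscan4, and 76.9 and 89.8 in OE Zscan4. Pnma3 had 48.4 and 47.1 in OE control, 3.61 and 4.52 in KD control, 10.1 and 18.3 in KD Zscan4, and 22.1 and 16.8 in OE Zscan4. Gm18336, on the far side, had 247 and 254 in OE control, 64.1 and 44.1 in KD control, 46.3 and 49.2 in KD Zscan4, and 97.0 and 91.6 in OE Zscan4. Zfp275 and Haus7 varied less, with 302 to 412 and 519 to 766 over the 8 libraries.

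**Figure D4:**
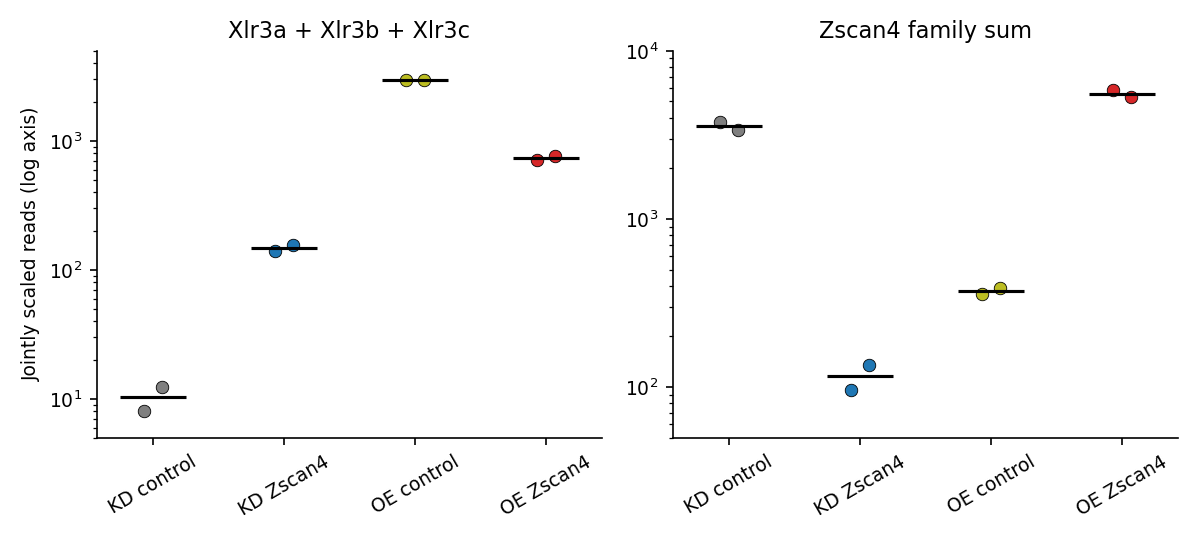
Jointly scaled reads of the Xlr3 sum and of the Zscan4 sum in each of the 8 libraries (log axes), with bars at the group means. The Xlr3 sum is lowest in KD control (8.12 and 12.4) and highest in OE control (2963 and 2948), while the Zscan4 sum is lowest in KD Zscan4 and highest in OE Zscan4.

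The 5 genes outside the family with profiles most like the Xlr3 sum over the 8 libraries were Gm41031 on chromosome 13, Crxos on chromosome 7, Defb42 on chromosome 14, Ldhc on chromosome 7 and Gm15915 on chromosome 10. Likeness was the root mean square difference between the profiles of log2(jointly scaled reads + 1), each centred on its own mean, among 14732 genes. It was 0.78, 0.84, 0.89, 1.11 and 1.15, where the median gene had 3.01. Crxos, a homeobox gene transcribed in ES cells, had 1.80 and 1.13 in KD control, 12.1 and 23.2 in KD Zscan4, 247 and 236 in OE control and 49.5 and 29.0 in OE Zscan4. Ldhc, the lactate dehydrogenase gene of the testis, had 1.80 and 1.13, then 14.1 and 7.72, then 128 and 106, then 21.1 and 29.9. Defb42, a defensin gene, had 0 and 1.13, then 15.1 and 10.6, then 101 and 78.8, then 25.3 and 30.9. All 5 were near 0 in KD control and highest in OE control, as the Xlr3 sum was. None lies on chromosome X.

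**Figure D5:**
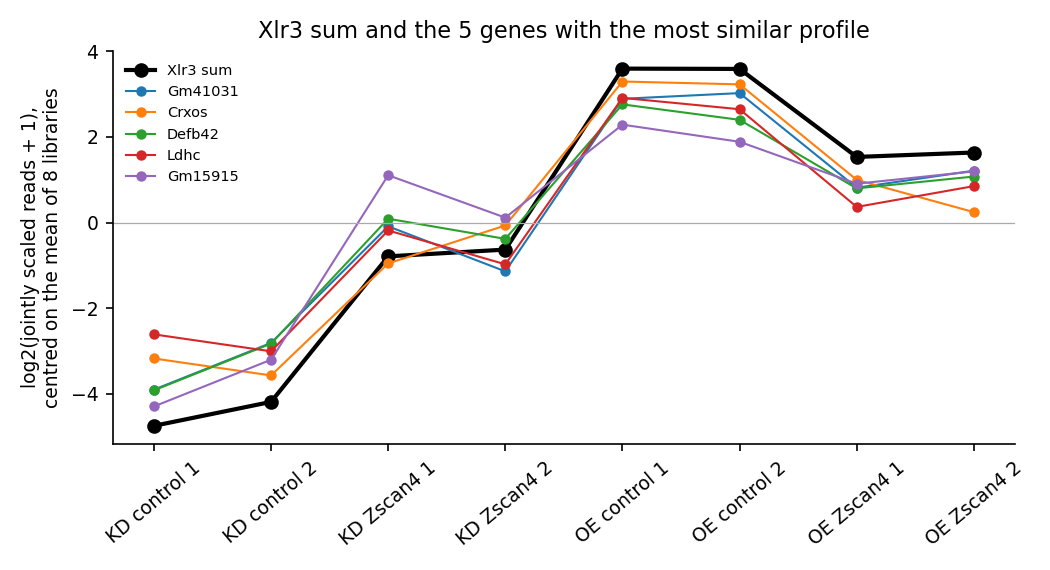
Profiles of the Xlr3 sum (black) and of the 5 genes most like it over the 8 libraries, as log2(jointly scaled reads + 1) centred on the mean of each profile; lines join the points of 1 gene. All 6 profiles are lowest in the KD control libraries and highest in the OE control libraries.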

How the data were processed

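mRNA of J1 cells was measured in 8 libraries, 2 per group, which were grouped by their titles. Per the submitters' processing notes, the tools were cutadapt, HISAT2, featureCounts and DESeq2, of unstated version, and the build mm10. The authors deposited a table of signal values for each arm: whole reads divided by 1 factor per library (100% of values whole within 0.01 of a read, and the factors equal median-of-ratios factors). Depth was 17392177 to 22381633 reads per library. Per-sample value columns that could not be mapped numbered 0. Gene IDs were matched to GENCODE M21 symbols (17913 of 17938 and 18259 of 18292), and RefSeq promoter windows to all 7 members.

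Within each arm, limma-trend (limma 3.58.1, R 4.3.3) was fitted to log2(value + 1) over all genes, 2 against 2 libraries, two-sided, with Benjamini-Hochberg adjustment and a false discovery rate of 0.05. Log2 differences are on this scale, which understates changes of low genes. Intervals of ratios of reads are exact 95% conditional intervals. The script was tested on simulated data. Alternatives used edgeR 4.0.16 and DESeq2 1.42.0 on recovered reads, TMM scaling, other pseudocounts, a filter on low values, a replicate block, 1 fit of all libraries and leaving out each library. Identities come from global alignments with free ends, gaps left out (Biopython 1.88).

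The members and gene lists were chosen with earlier results of these data known. The plan gave members an adjusted p in the overexpression arm. None is printed, because 4 members are listed in that table alone and its values bear on their choice. Named were all members, the 5 genes most like the Xlr3 sum, up to 4 passing genes with the largest change per list and comparison, the 3 measured genes on each side of the block and those inside it. The likeness was set to the Xlr3 sum, since the members of the other groups are in 1 table. Relatives were named in full, and Xlr5e-ps, marker genes and CCAATCAGAG after their values or sequences were seen.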

Additional observations from a re-analysis of the deposited data

Results flagged for a closer look

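Xlr3a, Xlr3b, Xlr4a and the sum of Xlr3a, Xlr3b and Xlr3c moved in opposite directions in the 2 arms, with both Zscan4 libraries above both controls in the knockdown and below both in the overexpression. The log2 differences in the knockdown and the overexpression were 5.42 and -1.37 for Xlr3a, 2.85 and -3.04 for Xlr3b, 3.37 and -1.54 for Xlr4a, and 3.78 and -2.01 for the sum. The difference between the arms was not tested, each arm has its own controls, and the copies can share reads, so these are not independent observations. In the knockdown Xlr3a, Xlr3b and Xlr4a are listed only through their KD Zscan4 values.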

How the results depend on the processing

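With 2 libraries per group, control libraries with 1 to 8 reads per member in the knockdown, and copies that share much of their sequence, single-copy values there are limited by depth and by read assignment. Of 116 member values under the alternatives, 115 kept the direction of the reported value, all 80 in the overexpression among them, and the exception was Xlr3c in the knockdown (-0.76 to 0.10). The replicate block and the filter on low values cannot change the difference of a member, so those among the 116 carry no information. DESeq2 called fewer genes in both arms, 4125 in place of 6403 in the knockdown and 5638 in place of 8111 in the overexpression, and the cause was not tested. The log2 difference of the family sum without Xlr3a, the member with the highest mean over all libraries of each arm, was 1.32 in place of 3.78 in the knockdown and -4.09 in place of -2.43 in the overexpression, where over the 3 members in both tables it was -2.01. Leaving out 1 library gave 4416 to 6087 called genes and a sum of 3.50 to 4.06 in the knockdown, and 5964 to 7975 genes and a sum of -2.48 to -2.38 in the overexpression. Same-numbered libraries did not deviate together (correlations of -0.06 and -0.04 over 14554 and 14783 genes). With 2 libraries per group this cannot exclude that the samples were paired. With the replicate block 6924 and 8188 genes were called. A block cannot change the difference of group means in this layout, so the sums were not refitted with it.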
